A study of Mus musculus with 8 samples.

Results

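The solute carriers are a large set of membrane proteins, named Slc and grouped in numbered families, and 166 of their genes were followed in MBL2 cells after talazoparib, romidepsin or both drugs. The 166 were the genes of the deposited table of 12260 whose symbol starts with Slc and a number and that reached 1 FPKM (a level scaled to transcript length and library size) in 2 or more of the 8 libraries. The table held 195 such symbols: 5 were left out by name (Slc2a1, Slc2a3, Slc16a1, Slc16a3 and Slc19a2), and 24 others lay below the level. MBL2 is a T-cell lymphoma line of the mouse, from C57BL/6 and induced by Moloney murine leukaemia virus, so every group shares that virus-driven origin and all libraries come from 1 cell line. The 4 groups, with 2 libraries each, were untreated control cells, cells given romidepsin, cells given talazoparib and cells given the combination, all harvested at 24 h. No label states a dose. The treatment notes speak of 3 replicates while 2 libraries a group were analysed, and the labels do not say whether they are separate cultures. The p-values therefore reflect the spread between these libraries alone, which may be technical.

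Talazoparib inhibits the PARP enzymes, which mark sites of DNA damage, and romidepsin inhibits histone deacetylases, which remove acetyl groups from chromatin. Solute carriers move amino acids, sugars, nucleosides, metals and other ions across the cell surface and the membranes of organelles, mostly as facilitators, exchangers or co-transporters that run on existing gradients. Lymphoma cells that divide draw on them for leucine and glutamine, for zinc and iron, and for exchange of ADP and ATP across the inner mitochondrial membrane. The symbol is a naming convention, and 4 of the 166 genes do not encode carriers (the scaffold gene Slc9a3r1, Slc4a1ap, Slc7a6os and the pseudogene Slc2a4rg-ps).

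In the cells given talazoparib, alone or together with romidepsin, the zinc importer genes Slc39a10 and Slc39a6, the copper importer gene Slc31a1 and the neutral amino acid carrier gene Slc1a4 were lower. Genes for sugar-phosphate carriers (Slc37a2, Slc37a3), a sugar carrier (Slc5a9) and a potassium-chloride co-transporter (Slc12a7) were higher. No Slc gene passed the test for romidepsin alone, nor for romidepsin added to talazoparib. A gene passed, and is said to have risen or fallen, where edgeR's quasi-likelihood test gave a Benjamini-Hochberg adjusted p under 0.05 over the 11934 genes tested. Every one of the 166 Slc genes was tested. In bulk RNA, fewer cells of a kind and less RNA per cell cannot be told apart.

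Promoter sequence is shown for Slc39a10, Slc1a4 and Slc37a2, which are among the genes named above. It is also shown for Slc7a11, the carrier gene known for its amino acid response elements. Any part of these sequences in the changes was not tested. Each run holds the 250 bases before an annotated start, 5′ to 3′ on the gene's strand, from RefSeq on GRCm38.p6, which has the coordinates of mm10. Capitals mark matches, on either strand, to the amino acid response element core TGATGNAA. The runs lie on the minus strand at chr1:46853619-46853868 (the second of 2 listed starts), chr11:20332714-20332963, chr9:37255739-37255988 and chr3:50443614-50443863.
Slc39a10: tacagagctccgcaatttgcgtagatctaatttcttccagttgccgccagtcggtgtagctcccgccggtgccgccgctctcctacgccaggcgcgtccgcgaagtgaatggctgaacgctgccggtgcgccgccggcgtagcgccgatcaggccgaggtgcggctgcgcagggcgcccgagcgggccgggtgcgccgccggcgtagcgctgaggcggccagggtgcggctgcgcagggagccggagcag
Slc1a4: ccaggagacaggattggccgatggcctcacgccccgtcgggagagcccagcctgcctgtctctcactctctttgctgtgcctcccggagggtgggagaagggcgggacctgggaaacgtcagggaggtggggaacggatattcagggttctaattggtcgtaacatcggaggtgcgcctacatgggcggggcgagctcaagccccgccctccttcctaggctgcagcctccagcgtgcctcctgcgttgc
Slc37a2: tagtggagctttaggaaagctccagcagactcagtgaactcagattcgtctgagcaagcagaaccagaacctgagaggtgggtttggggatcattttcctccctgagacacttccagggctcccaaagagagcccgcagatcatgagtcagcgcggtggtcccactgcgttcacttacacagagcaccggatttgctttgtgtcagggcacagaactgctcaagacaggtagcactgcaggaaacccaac
Slc7a11: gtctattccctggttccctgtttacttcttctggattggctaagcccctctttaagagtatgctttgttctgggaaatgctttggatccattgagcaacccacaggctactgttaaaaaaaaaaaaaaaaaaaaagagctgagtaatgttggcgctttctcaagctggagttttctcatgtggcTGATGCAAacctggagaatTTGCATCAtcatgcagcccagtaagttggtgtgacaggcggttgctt
The Slc7a11 run held 2 matches, whose first bases lie at -66 and -47 from the start. The other runs held no match to this core. The metal response element core (TGCACNC or TGCGCNC, either strand) was searched in Slc39a10 and Slc37a2, and neither run held it. Over all 32851 promoter windows of this length, 3.45% held the amino acid core and 21.4% the metal core. Counted by gene, with a match in any window, these were 3.91% and 23.8% of 27025 genes. Of the 166 Slc genes 126 had a window. Among these, 4 (Slc7a11, Slc7a7, Slc9a9 and Slc50a1) held the amino acid core (3.17%) and 41 the metal core (32.5%). The Slc genes had met a level rule and the 27025 genes had not, so these shares are not like for like. A match of letters is a description and not a binding site.

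Levels of the Slc genes spanned from 0.847 to 565 FPKM as means over the 8 libraries, with quartiles of 3.67, 8.20 and 18.8. The highest belonged to the inner mitochondrial membrane: the ADP/ATP carriers Slc25a5 (565 FPKM) and Slc25a4 (428) and the phosphate carrier Slc25a3 (381). The zinc importer Slc39a6 came next (183), then Slc25a39 (111), which takes glutathione into mitochondria, and the haem transporter Slc48a1 (107). These 6 were the Slc genes above 100 FPKM. Over the 8 libraries Slc39a6 ran from 134 to 223 FPKM and Slc25a39 from 96.7 to 116, so that these neighbours in rank did not overlap. Slc25a39 and Slc48a1 (91.7 to 123 FPKM) did overlap and cannot be ordered. At the cell surface the leading amino acid carriers were Slc6a13 (94.8 FPKM), a transporter of GABA and taurine, and Slc3a2 (76.8), the heavy chain that brings several Slc7 carriers to the membrane. The nucleoside transporter Slc29a1 stood at 90.5 FPKM. In all, 71 of 166 genes had a mean of at least 10 FPKM and 19 a mean below 2.

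**Figure D1:**
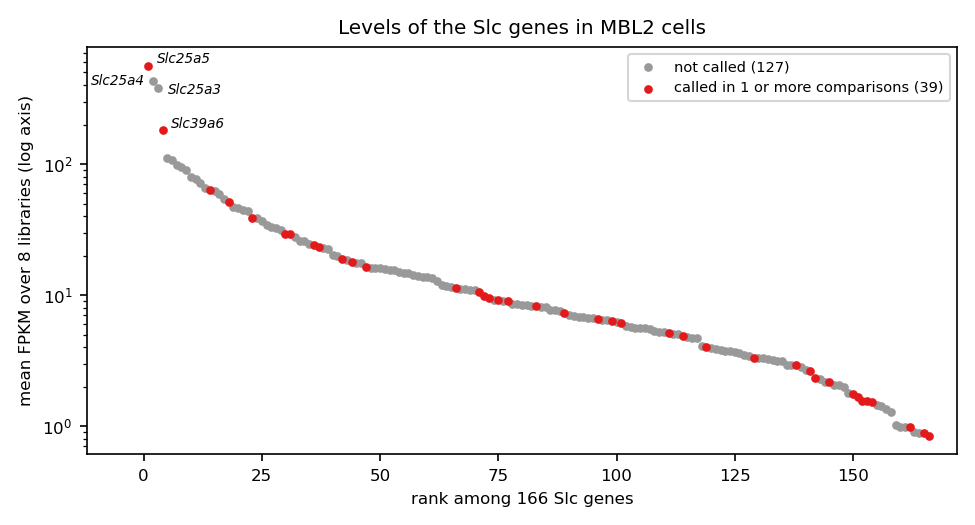
Mean level of each of the 166 Slc genes over the 8 libraries (FPKM, log axis) against its rank, with the genes that passed the test in 1 or more comparisons in red. Of the 39 red genes, Slc25a5 and Slc39a6 are among the 4 most abundant, and the others lie along the whole range of levels.

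At the edge of the level rule, the genes just outside had a highest FPKM of 1.0 (Slc5a3, in 1 library), 0.994 (Slc12a8), 0.982 (Slc26a6) and 0.890 (Slc30a3). Just inside, the second-highest FPKM was 1.05 for Slc22a15, 1.06 for Slc22a21, 1.09 for Slc26a11 and 1.13 for Slc25a45. Because the rule reads all groups, a gene that is low in controls could enter it through treated libraries. This holds for 9 genes under 1 FPKM in both controls (Slc2a4, Slc6a20a, Slc15a3, Slc22a15, Slc22a21, Slc24a4, Slc25a34, Slc31a2 and Slc35g3). They had to be higher in treated libraries to be among the 166, so their values are given as description, with no test, and the counts by class below are over the other 157 genes.

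Over the 157 genes, 11 rose (7.01%) and 5 fell (3.18%) with talazoparib alone against control. Among all genes tested 11.1% passed in this comparison, 6.43% upward and 4.64% downward, so the Slc shares lay near the background. The combination against control moved 18 of 157 up (11.5%) and 8 down (5.1%), beside 17.5% of all genes (10.2% up, 7.28% down). Talazoparib added to romidepsin, that is the combination against romidepsin, moved 14 up (8.92%) and 6 down (3.82%), beside 11.7% of all genes (7.01% up, 4.7% down). This restriction was added after seeing the data. With all 166 counted, including the genes that entered through treated libraries, the calls were 17 up and 5 down, 25 up and 8 down, and 20 up and 6 down, of which the upward numbers are partly set by the level rule. Kept to the 151 Slc genes with 1 FPKM in all 8 libraries, they were 10 up and 5 down, 17 up and 8 down, and 13 up and 6 down. The upward shares were 6.62%, 11.3% and 8.61%, beside 5.75%, 8.66% and 6.22% of all genes under the same level rule. Downward, the shares were 3.31%, 5.3% and 3.97%, beside 5.39%, 8.55% and 5.45% of all genes under that rule.

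The median log2 fold change of the 166 Slc genes was 0.08, 0.12 and 0.09 in these 3 comparisons, and that of all genes lay at 0.01, 0.00 and -0.00. The Slc medians moved with single libraries: the first was 0.183 without talazoparib replicate 1 and 0.045 without talazoparib replicate 2, and the third was 0.048 without combination replicate 2. On the FPKM scale, tested with limma on log2(FPKM + 0.1), the calls among all 166 were 21 up and 3 down (14.5% in all, beside 11.1% of all genes on that scale), 35 up and 4 down (23.5%, beside 17.5%), and 27 up and 4 down (18.7%, beside 12.7%). The 166 include genes that entered through treated libraries, which partly sets the upward numbers, while all genes tested met no level rule. The shares and medians of the Slc genes and of all genes are therefore not like for like here. The median of all genes on that scale was 0.09, 0.10 and 0.10. The number of calls changed when 1 library was left out, and no call changed sign. Fewer calls do not show that a call rested on the library left out. Without control replicate 1, which is outside the third comparison, that comparison had fewer calls while its Slc median stayed at 0.09. The cause was not tested.

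**Figure D2:**
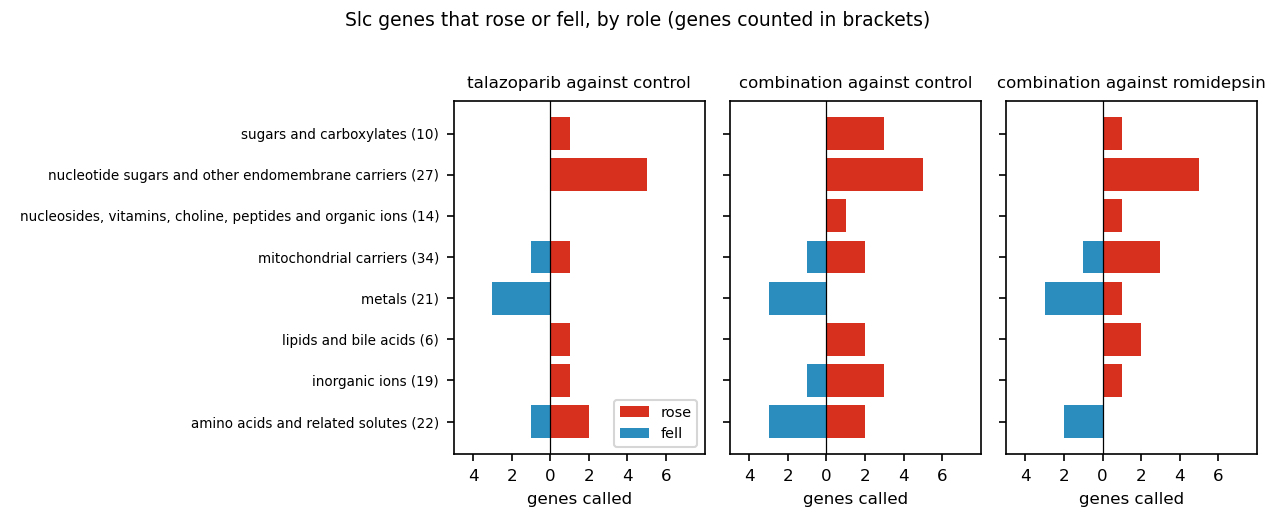
Number of Slc genes that rose (red, to the right) or fell (blue, to the left) in 3 comparisons, by what the carriers move, over the 157 genes not under 1 FPKM in both controls, with the genes in each class in brackets. Falls are confined to metals, amino acids, mitochondrial carriers and inorganic ions in the calls shown, and the endomembrane class holds the most rises, 5 of 27 genes in each.

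Romidepsin alone moved no Slc gene past the threshold in edgeR, DESeq2 or limma, beside 3 of all 11934 genes in edgeR (0.0251%). At an unadjusted p under 0.05 there were 5 Slc genes (3.01%) by edgeR and by DESeq2, and 4.37% of all genes by edgeR. These 5 were Slc15a3, Slc27a6, Slc31a2, Slc35a2 and Slc39a14, all with an edgeR adjusted p of 0.940. Slc15a3 and Slc31a2 were under 1 FPKM in both controls and had to be higher in treated libraries to be members. They stand here as description, and the 3.01% includes them. Slc31a2, a copper transporter of inner membranes, had 3.0 and 2.96 CPM (counts scaled to library size) with romidepsin and 1.94 and 1.89 in controls. The zinc and iron importer Slc39a14 had 22.2 and 19.0 CPM against 9.51 and 15.2. Romidepsin added to talazoparib likewise moved none (0.0251% of all genes), with 3 Slc genes at an unadjusted p under 0.05 by edgeR and 4 by DESeq2. The test of whether the log2 effects of both drugs add up called none (0.0168% of all genes), with 1 gene at an unadjusted p under 0.05 by either tool. Log2 fold changes for romidepsin alone ran from -0.80 to 0.74 over the Slc genes.

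Among 21 metal carriers, 3 importer genes fell in each talazoparib comparison (14.3%; all genes: 4.64%, 7.28% and 4.7% down), and 0, 0 and 1 rose. Slc39a10 and Slc39a6 encode ZIP-family zinc importers of the cell surface that can pair with each other. Slc39a10 (chr1:46807544-46925776) had 427 and 456 CPM in controls, 523 and 403 after romidepsin, 161 and 246 after talazoparib and 196 and 185 with the combination. Every library with talazoparib lay below every library without it. The log2 fold change was -1.12 ± 0.20 (SE) for talazoparib (edgeR adjusted p = 0.0139), -1.21 ± 0.20 for the combination (adjusted p = 0.0074) and -1.28 ± 0.20 for talazoparib added to romidepsin (adjusted p = 0.00972), with 2 libraries a group in this model over all genes. Talazoparib replicate 1 was the lowest library of its group, and without it the first value was -0.85.

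Slc39a6, the metal carrier gene with the highest FPKM, had 923 and 856 CPM in controls and 904 and 896 with romidepsin. It had 514 and 612 after talazoparib and 574 and 531 with the combination, so the groups with and without talazoparib did not overlap. Its log2 fold changes were -0.66 ± 0.10, -0.69 ± 0.10 and -0.70 ± 0.10 in the same 3 comparisons (edgeR adjusted p = 0.00928, 0.00551 and 0.00764). The copper importer Slc31a1 had 130 and 122 CPM in controls, 132 and 135 after romidepsin, 97.0 and 94.8 after talazoparib and 99.9 and 90.6 with the combination. This was a fall of smaller size, at -0.39, -0.40 and -0.49 on the log2 scale (edgeR adjusted p = 0.0296, 0.0201 and 0.0162). The gene overlaps Fkbp15, and no source used here states the strand setting of the counting, so their reads may not be separable.

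Slc31a2, the relative of the copper importer, stood at 3.40 and 3.34 CPM after talazoparib and 4.03 and 4.19 with the combination, above the control and romidepsin values given before. Its log2 values were 0.81, 1.10 and 0.46, given as description because it was under 1 FPKM in both controls. The zinc importer Slc39a1 rose in the comparison after romidepsin, from 58.0 and 63.5 CPM to 75.9 and 81.4 (log2 0.37, adjusted p = 0.0413). The zinc exporter Slc30a1 had log2 values of 0.31 and 0.38 against control and did not pass (edgeR adjusted p = 0.291 and 0.189). The iron importer Slc11a2 had -0.01 and 0.02 and did not pass either. Each of the 10 metal carrier calls missed the threshold without at least 1 library: without control 1, control 2, romidepsin 1, romidepsin 2, talazoparib 1, talazoparib 2, combination 1 and combination 2 the calls lost were 6, 4, 3, 3, 0, 1, 4 and 7, with a highest adjusted p per call from 0.0526 to 0.205.

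**Figure D3:**
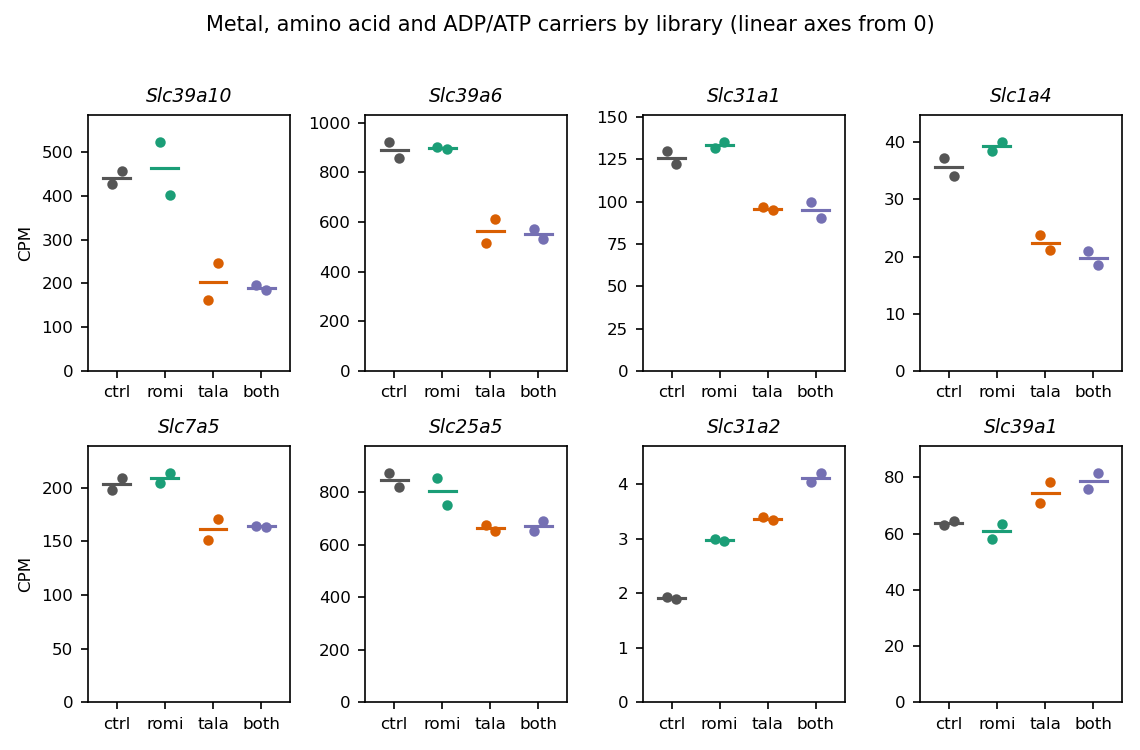
CPM per library on linear axes from 0 for 8 genes (points are libraries, bars group means; ctrl is control, romi romidepsin, tala talazoparib, both the combination). Slc39a10, Slc39a6, Slc31a1, Slc1a4, Slc7a5 and Slc25a5 lie lower in all 4 libraries with talazoparib than in those without it. Slc31a2 lies higher in all 4, and Slc39a1 lies higher with the combination than with romidepsin.

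Of 22 other genes of metal handling, listed with the study's results already known, 21 were tested: 1 rose and 2 fell with talazoparib, and likewise with the combination against control. Against romidepsin 1 rose and 3 fell. These are 4.76% up in each and 9.52%, 9.52% and 14.3% down (all genes: 6.43%, 10.2% and 7.01% up, 4.64%, 7.28% and 4.7% down). The transferrin receptor gene Tfrc, through which cells take up iron, had 742 and 722 CPM in controls and 387 and 525 with talazoparib, and its log2 fold change was -0.68 (edgeR adjusted p = 0.0264). In the combination it was at 456 and 399 CPM. Mt2, a metallothionein that binds zinc and copper, fell by 0.58, 0.46 and 0.67 on the log2 scale in the 3 comparisons, and Mt1 by 0.69 in the last of them. Ccs, the copper chaperone of superoxide dismutase, rose (0.45, 0.41 and 0.52).

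Among 22 genes for carriers of amino acids and related solutes, 2 rose and 1 fell with talazoparib, 2 rose and 3 fell with the combination, and 0 rose and 2 fell when talazoparib was added to romidepsin. These are 9.09%, 9.09% and 0% up and 4.55%, 13.6% and 9.09% down (all genes: 6.43%, 10.2% and 7.01% up, 4.64%, 7.28% and 4.7% down). Slc1a4, the exchanger of alanine, serine and cysteine (chr11:20302180-20332713), had 37.2 and 34.2 CPM in controls and 38.5 and 40.1 with romidepsin. It had 23.7 and 21.1 after talazoparib and 20.9 and 18.5 with the combination, and the libraries with and without talazoparib did not overlap. The log2 fold changes were -0.67 ± 0.11, -0.86 ± 0.11 and -0.995 ± 0.11 (edgeR adjusted p = 0.0127, 0.00375 and 0.0037). The latter 2 calls held under every alternative run. Slc7a5, the light chain of the large neutral amino acid carrier, had 197 and 209 CPM in controls, 205 and 213 after romidepsin, 151 and 171 after talazoparib and 164 and 163 with the combination. It fell in the combination (log2 -0.31 and -0.35, edgeR adjusted p = 0.0489 and 0.0437) and had -0.33 with talazoparib alone (adjusted p = 0.0514).

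Its heavy chain Slc3a2 had 263 and 219 CPM in controls, 177 and 318 after romidepsin, 164 and 196 after talazoparib and 149 and 146 with the combination. The romidepsin libraries spanned the widest range and the log2 values of -0.42, -0.71 and -0.75 did not pass (edgeR adjusted p = 0.281, 0.0790 and 0.0816). Slc7a11, the light chain of the cystine-glutamate exchanger whose promoter is printed above, had 27.5 and 26.6 CPM in controls, 23.8 and 27.6 after romidepsin, 19.1 and 15.5 after talazoparib and 20.4 and 13.3 with the combination. Its log2 values of -0.65, -0.68 and -0.61 missed the threshold (edgeR adjusted p = 0.0781, 0.0519 and 0.0884). Over the alternatives Slc7a11 passed in some runs and missed in others, in each of these comparisons. The glutamine carriers Slc1a5, Slc38a1 and Slc38a2 had log2 values of 0.07, 0.06 and -0.10 with talazoparib, none called. The glycine transporter Slc6a9 fell in the combination against control (log2 -0.44, adjusted p = 0.042), from 38.0 and 31.7 CPM to 25.7 and 25.8.

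Other amino acid carriers were higher. Slc7a8, a second light chain for large neutral amino acids, had 12.1 and 15.1 CPM in controls, 24.2 and 17.7 after romidepsin, 20.7 and 38.6 after talazoparib and 39.9 and 43.3 with the combination. It rose against control (log2 1.13 ± 0.28 and 1.62 ± 0.28, edgeR adjusted p = 0.0415 and 0.0101), and without talazoparib replicate 2 the first value was 0.61. The proline carrier Slc6a20a had 1.16 to 1.63 CPM in the 4 libraries without talazoparib, 2.46 and 4.27 with it and 4.96 and 5.95 with both drugs, at log2 1.28, 1.98 and 1.83, given as description because both controls were under 1 FPKM. Without talazoparib replicate 2 its first value was 0.83. Slc36a1, a proton-coupled carrier of small amino acids found on lysosomes, rose from 5.96 and 7.74 CPM to 9.92 and 12.6 after talazoparib and 10.4 and 11.1 with the combination (log2 0.72 and 0.66, adjusted p = 0.041 and 0.042). Of the 10 calls in this class 8 were lost without at least 1 library: 8, 7, 6, 5, 0, 2, 6 and 7 without control 1, control 2, romidepsin 1, romidepsin 2, talazoparib 1, talazoparib 2, combination 1 and combination 2, with a highest adjusted p per call from 0.0418 to 0.25.

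Genes of the amino acid response, which cells switch on through the transcription factor ATF4 when amino acids run short, were listed beside the carriers with the study's results already known. Of 22 genes 20 were tested: with talazoparib 9 fell and 1 rose, with the combination 10 fell and 2 rose, and against romidepsin 12 fell and 2 rose. These are 45%, 50% and 60% down and 5%, 10% and 10% up (all genes: 6.43%, 10.2% and 7.01% up, 4.64%, 7.28% and 4.7% down). Their median log2 fold changes were -0.63, -0.57 and -0.58. Atf4 itself had 257 and 222 CPM in controls, 224 and 263 after romidepsin, 140 and 129 after talazoparib and 131 and 134 with the combination. The asparagine synthetase gene Asns had 1598 and 1474 CPM in controls and 969 and 803 with talazoparib, a log2 fold change of -0.79 (edgeR adjusted p = 0.00532). Sesn2, a leucine sensor that is also a p53 target, rose (1.43, 1.29 and 1.15). None of the list passed for romidepsin alone.

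Among 10 sugar and carboxylate carriers, 1 gene rose with talazoparib (10%), 3 with the combination against control (30%) and 1 against romidepsin (10%) (all genes: 6.43%, 10.2% and 7.01%), and none fell. Slc5a9, a sodium-coupled carrier of mannose and glucose (chr4:111875374-111902796), had 4.10 and 7.11 CPM in controls, 6.47 and 3.86 after romidepsin, 14.6 and 24.8 after talazoparib and 17.8 and 22.7 with the combination. All 4 libraries with talazoparib lay above the other 4, at log2 1.82 ± 0.36, 1.86 ± 0.36 and 1.98 ± 0.36 (edgeR adjusted p = 0.0202, 0.0139 and 0.0172). The insulin-responsive glucose transporter Slc2a4 had 1.19 and 0.66 CPM in controls, 1.46 and 1.41 after romidepsin, 3.62 and 3.0 after talazoparib and 4.12 and 3.74 with the combination. As description, since both controls were under 1 FPKM, its log2 fold changes were 1.82, 2.06 and 1.45, and on the log2(FPKM + 1) scale, which compresses low genes, 0.74, 0.89 and 0.71.

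Slc2a6, a hexose carrier of lysosomes, rose in the combination against control, from 6.33 and 8.60 CPM to 13.4 and 14.9 (log2 0.92, adjusted p = 0.0205). Slc45a4, of a family of proton-coupled sugar carriers, rose in the same comparison from 28.7 and 35.0 CPM to 53.6 and 55.6 (0.78, adjusted p = 0.0366). Talazoparib alone left both short of the threshold, with Slc45a4 at 37.2 and 57.8 CPM. All 5 calls in this class were lost without at least 1 library: 4, 2, 0, 1, 0, 1, 3 and 4 in the order of libraries used above, with a highest adjusted p per call from 0.0963 to 0.204.

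In 27 genes for carriers of nucleotide sugars and other solutes of the endoplasmic reticulum, Golgi and lysosomes, 5 rose in each of the 3 comparisons (18.5%; all genes: 6.43%, 10.2% and 7.01%) and none fell. Slc37a2 (chr9:37229149-37255738), an exchanger of glucose-6-phosphate and phosphate in the endoplasmic reticulum, had 16.5 and 15.9 CPM in controls, 17.2 and 15.8 after romidepsin, 36.8 and 46.3 after talazoparib and 37.7 and 35.1 with the combination. The 4 libraries with talazoparib lay at over 2 times the level of the others. The log2 fold changes were 1.36 ± 0.13, 1.17 ± 0.13 and 1.14 ± 0.13 (edgeR adjusted p = 0.00182, 0.00219 and 0.00379), and all 3 calls held under every alternative run. Slc37a3, a lysosomal member of that family, had 29.3 and 29.4 CPM in controls, 34.5 and 33.7 after romidepsin, 41.4 and 46.2 after talazoparib and 45.1 and 51.1 with the combination. It rose by log2 0.58, 0.71 and 0.50 (edgeR adjusted p = 0.0152, 0.00513 and 0.0246).

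The other rises of this class were in Slc35 genes. Slc35e1, whose substrate is not established, had 98.3 to 107 CPM in the libraries without talazoparib and 124 to 134 in those with it (log2 0.34, 0.36 and 0.34, edgeR adjusted p = 0.0438, 0.0294 and 0.0437). Slc35d2, a Golgi carrier of UDP-N-acetylglucosamine and other nucleotide sugars, rose with the combination, from 8.81 and 8.97 CPM in controls and 9.87 and 7.53 with romidepsin to 14.6 and 16.1 (0.79 and 0.82). Slc35d1, which carries UDP-glucuronic acid into the endoplasmic reticulum, rose with talazoparib alone, from 19.6 and 19.3 CPM to 26.2 and 33.3 (0.61, adjusted p = 0.0342). Slc35e4 rose in both comparisons with control (0.43 and 0.41) and Slc35a5 against romidepsin (0.68). Slc35g3, under 1 FPKM in both controls, had 0.73 to 0.95 CPM without talazoparib and 2.20 and 2.18 with the combination. No gene of this class passed in the combination against talazoparib or in the test of whether the effects add up. These calls therefore do not tell the combination from talazoparib alone. The CMP-sialic acid carrier Slc35a1 had -0.05 and -0.03 against control, not called. Of the 15 calls 12 were lost without at least 1 library: 12, 11, 6, 5, 0, 3, 10 and 10 in the same order, with a highest adjusted p per call from 0.0264 to 0.245.

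**Figure D4:**
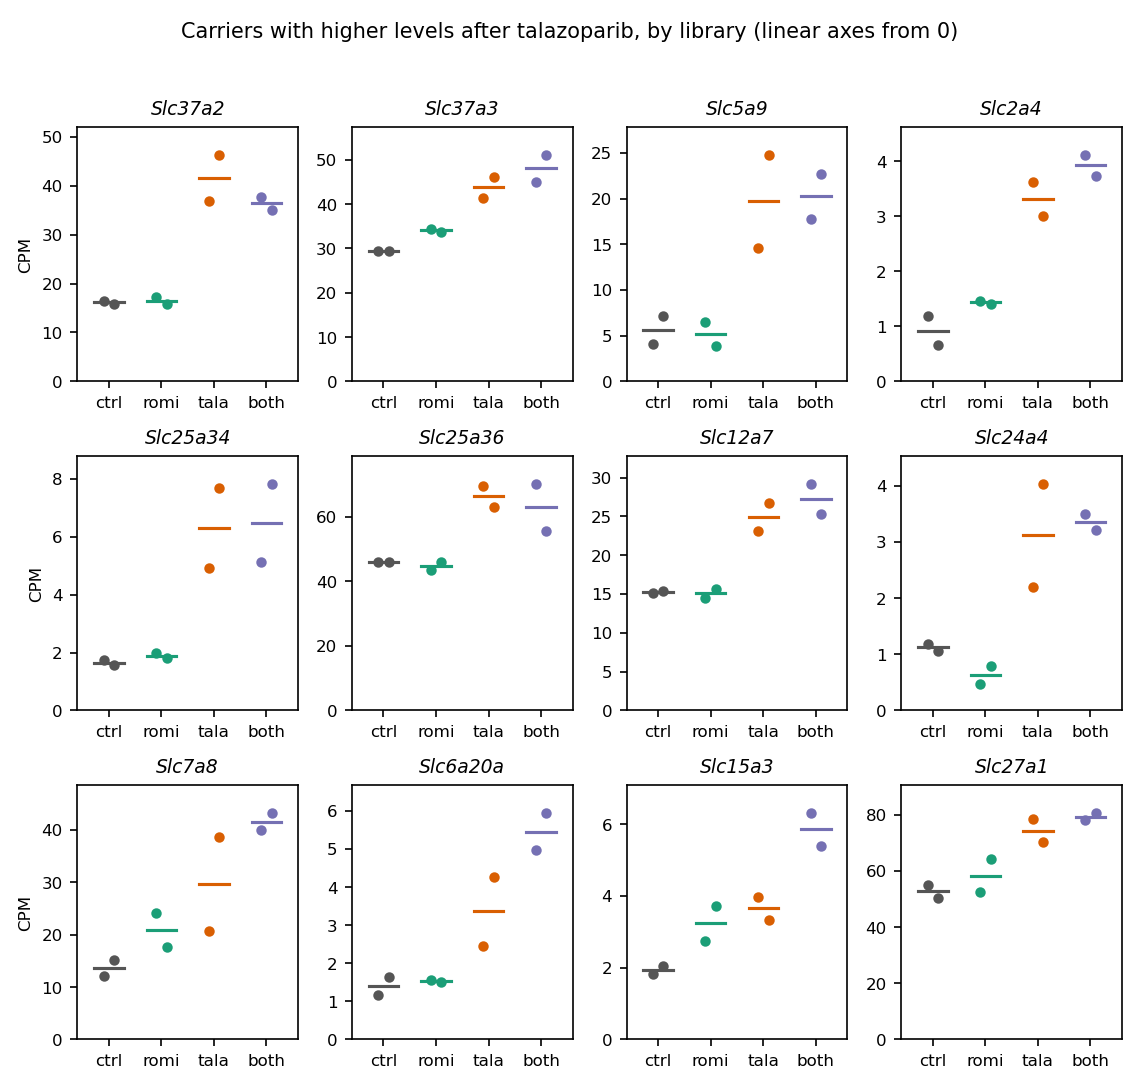
CPM per library on linear axes from 0 for 12 genes (points are libraries, bars group means; ctrl is control, romi romidepsin, tala talazoparib, both the combination). In Slc37a2, Slc5a9 and Slc12a7 the 4 libraries with talazoparib lie above the other 4, while Slc7a8 and Slc15a3 have romidepsin libraries between the control and combination values.

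Among 34 mitochondrial carrier genes of the Slc25 family (which includes the peroxisomal carrier Slc25a17), 1, 2 and 3 rose (2.94%, 5.88% and 8.82%) and 1 fell in each comparison (2.94%) (all genes: 6.43%, 10.2% and 7.01% up, 4.64%, 7.28% and 4.7% down). No share stood far above the background. Slc25a5, the ADP/ATP carrier of dividing cells, had 872 and 820 CPM in controls, 854 and 753 after romidepsin, 675 and 653 after talazoparib and 652 and 689 with the combination. It fell by 0.35 and 0.34 on the log2 scale against control (edgeR adjusted p = 0.0439 and 0.0386), and its -0.26 against romidepsin did not pass (adjusted p = 0.0956). The sister gene Slc25a4, the main form of heart and muscle, had 462 and 464 CPM in controls and 460 and 518 with talazoparib, and did not pass. The phosphate carrier Slc25a3, at 619 and 584 CPM in controls and 591 and 572 after talazoparib (log2 -0.05), did not pass either, nor did the mitochondrial iron importer Slc25a37 (0.02) and the glycine carrier Slc25a38 (0.03).

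Slc25a34, an uncharacterised member, had 1.75 and 1.56 CPM in controls, 1.97 and 1.82 after romidepsin, 4.91 and 7.67 after talazoparib and 5.14 and 7.84 with the combination (log2 1.92, 1.96 and 1.77, given as description because both controls were under 1 FPKM). The lowest library with talazoparib was above the highest without it. Slc25a36, a carrier of pyrimidine nucleotides, rose from 45.9 and 45.8 CPM in controls to 69.6 and 63.0 after talazoparib and 70.2 and 55.7 with the combination (log2 0.53, 0.46 and 0.49, adjusted p = 0.0311, 0.037 and 0.0389). Without combination replicate 1 its latter 2 values were 0.28 and 0.32. Slc25a17 rose against romidepsin, from 57.1 and 53.8 CPM to 71.9 and 72.6 (0.38, adjusted p = 0.0247). Slc25a30, whose substrate is less well defined, fell in that comparison, from 52.1 and 53.1 CPM to 39.6 and 29.2 (-0.61, adjusted p = 0.0394). All 9 calls of the family were lost without at least 1 library: 9, 9, 8, 8, 2, 1, 7 and 7 in the same order, with a highest adjusted p per call from 0.143 to 0.235.

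Of 19 inorganic ion carriers, 1 rose with talazoparib (5.26%), 3 rose (15.8%) and 1 fell (5.26%) with the combination against control, and 1 rose against romidepsin (5.26%) (all genes: 6.43%, 10.2% and 7.01% up, 4.64%, 7.28% and 4.7% down). Slc12a7, a potassium-chloride co-transporter that takes part in volume control, had 15.1 and 15.4 CPM in controls, 14.5 and 15.7 after romidepsin, 23.1 and 26.7 after talazoparib and 29.2 and 25.4 with the combination. No library with talazoparib overlapped one without it, at log2 0.70 ± 0.13, 0.84 ± 0.13 and 0.85 ± 0.13 (edgeR adjusted p = 0.0151, 0.00587 and 0.0085). The sodium/calcium-potassium exchanger Slc24a4 had 1.19 and 1.06 CPM in controls, 0.48 and 0.79 after romidepsin, 2.20 and 4.04 after talazoparib and 3.49 and 3.22 with the combination. As description, since both controls were under 1 FPKM, its log2 values were 1.46, 1.57 and 2.37, and without talazoparib replicate 2 the first was 0.97. The combination against control also raised the mitochondrial sodium/calcium exchanger Slc8b1 (log2 0.51, edgeR adjusted p = 0.045) and lowered the Golgi exchanger Slc9a8 (-0.40, adjusted p = 0.0477). Slc9a8 had 16.6 and 18.3 CPM in controls, 15.5 and 16.2 after romidepsin, 14.6 and 14.3 after talazoparib and 13.1 and 13.4 with the combination, the lowest of the groups. The phosphate importer Slc20a1 had -0.07 and -0.06 against control, not called. All 6 calls were lost without at least 1 library: 5, 4, 4, 4, 0, 0, 4 and 3 in the same order, with a highest adjusted p per call from 0.0565 to 0.236.

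Among 14 carriers of nucleosides, vitamins, choline, peptides and organic ions, none rose with talazoparib, 1 rose in each comparison of the combination (7.14%; all genes: 10.2% and 7.01%), and none fell. Slc15a3, a lysosomal carrier of histidine and short peptides, had 1.83 and 2.06 CPM in controls, 2.74 and 3.72 after romidepsin, 3.97 and 3.34 after talazoparib and 6.32 and 5.40 with the combination. Libraries with either drug alone overlapped and both lay between control and combination. As description, since both controls were under 1 FPKM, the log2 fold changes were 0.91, 1.59 and 0.85, and that for romidepsin alone was 0.74. The gene overlaps Tmem132a. Slc22a18, an organic cation transporter in an imprinted region, had 2.15 to 2.36 CPM without talazoparib, 3.81 and 4.44 with it and 5.44 and 3.84 with the combination (1.03 and 1.05 in the comparisons of the combination, adjusted p = 0.023 and 0.03). The nucleoside transporter Slc29a1 and the folate carrier Slc19a1 had -0.02 and -0.19 after talazoparib and did not pass. Both calls were lost without at least 1 library: 2, 2, 1, 1, 0, 0, 2 and 1 in the same order, with a highest adjusted p of 0.145 and 0.153.

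Of the 6 lipid and bile acid carriers, 1 rose with talazoparib (16.7%) and 2 in each comparison of the combination (33.3%) (all genes: 6.43%, 10.2% and 7.01%). Slc27a1, a fatty acid transport protein with acyl-CoA synthetase activity, had 55.1 and 50.4 CPM in controls, 52.3 and 64.2 after romidepsin, 78.4 and 70.2 after talazoparib and 77.9 and 80.7 with the combination. Its log2 values were 0.49, 0.59 and 0.44 (edgeR adjusted p = 0.0351, 0.0157 and 0.0471). Slc27a6, of the same family, had 26.0 and 24.1 CPM in controls, 29.9 and 29.6 after romidepsin, 31 and 29.3 after talazoparib and 35.8 and 33.6 with the combination, and rose in the combination against control (0.47, adjusted p = 0.0185). Slc10a3, of the bile acid carrier family and overlapping Gm44504, had 9.57 and 10.8, 8.85 and 6.66, 11.9 and 19.7, and 13.8 and 17.7 CPM in the same order of groups and rose against romidepsin (1.02, adjusted p = 0.042). For Slc27a1 and Slc10a3 all 4 libraries with talazoparib were above all 4 without it, while for Slc27a6 the romidepsin and talazoparib libraries overlapped. All 5 calls were lost without control 1, control 2, combination 1 or combination 2, and 2, 2, 1 and 0 without romidepsin 1, romidepsin 2, talazoparib 1 and talazoparib 2, with a highest adjusted p per call from 0.107 to 0.215.

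Talazoparib against control and the combination against romidepsin share no library, so they give 2 separate views of talazoparib, although the model draws 1 estimate of the spread from all libraries. Over the 157 genes, 16 were called in the first and 20 in the second, with 11 in both (68.8% and 55%), all 11 in the same direction. Across all genes 876 were called in both (66.3% and 62.7%). The same sign was found for 125 of the 157 (79.6%) and for 80.6% of all genes, so neither share set the Slc genes apart. Pearson's r of the log2 fold changes was 0.831 across the 157 genes, 0.871 across all 166 and 0.761 across all genes tested. Genes are not independent replicates, and these values describe the libraries.

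**Figure D5:**
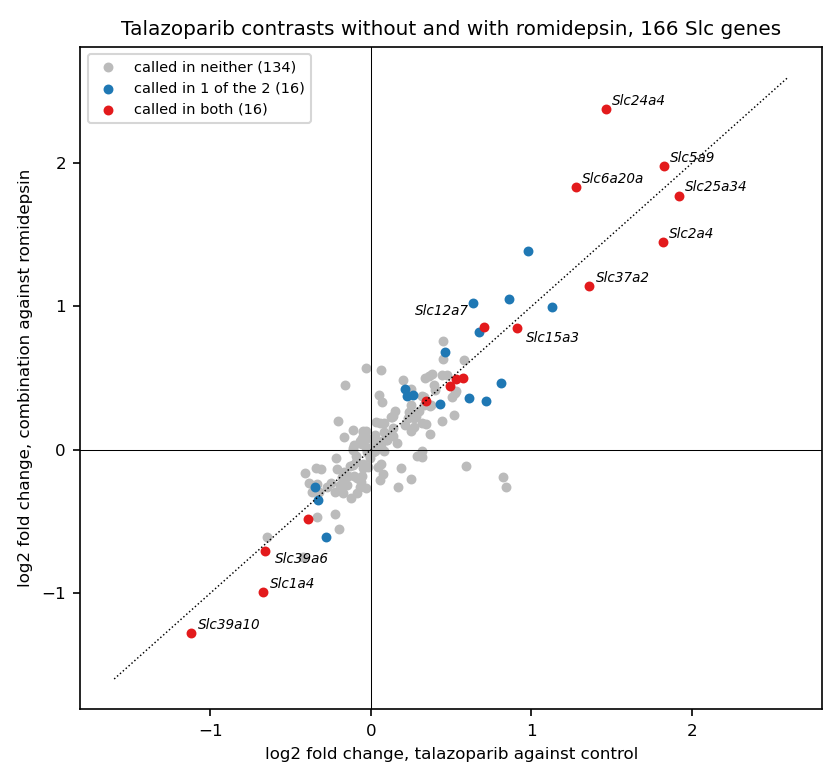
Log2 fold change of talazoparib against control (horizontal axis) and of the combination against romidepsin (vertical axis) for the 166 Slc genes, with the dotted line marking equal values. The 16 red genes, called in both, have the same sign on both axes, from Slc39a10 (-1.12 and -1.28) to Slc5a9 (1.82 and 1.98); 5 of them (Slc2a4, Slc6a20a, Slc15a3, Slc24a4 and Slc25a34) were under 1 FPKM in both controls.

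In some genes the 2 libraries of a group stood far apart. The zinc exporter of endosomes and lysosomes Slc30a4 had 37.7 CPM in control replicate 1 and 159 in control replicate 2, and 124 to 161 in the other 6 libraries. It did not pass against control (log2 0.65 for romidepsin, edgeR adjusted p = 0.940), and without control replicate 2 it gave 2.02, 1.97 and 1.91 for romidepsin, talazoparib and the combination (adjusted p = 0.0276, 0.00942 and 0.00812). Without control replicate 1 the same values were -0.06, -0.11 and -0.17. Slc16a6, a monocarboxylate carrier of the Slc16 family, had 29.9 CPM in control 1 and 33.6 in combination 2, and 60.6 to 82.2 in the other 6 libraries. It overlaps Arsg. Slc38a10 had 97.0 and 105 CPM in talazoparib 1 and combination 1 and 151 to 172 elsewhere.

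Carriers that bear other names were counted from a list of 56, of which 48 were tested: 3 rose and 1 fell with talazoparib (6.25% and 2.08%), 4 and 3 with the combination (8.33% and 6.25%), and 4 and 2 against romidepsin (8.33% and 4.17%), near the shares of all genes (all genes: 6.43%, 10.2% and 7.01% up, 4.64%, 7.28% and 4.7% down). Mfsd1, a lysosomal carrier, rose in all 3 (log2 0.43, 0.41 and 0.56), as did Pqlc3 (0.53, 0.53 and 0.57). The lysosomal cystine exporter Ctns rose with talazoparib (0.63) and against romidepsin (0.64). Of 16 partners of carriers and sodium pump genes 14 were tested: 1 rose and 1 fell (7.14% each), 2 rose and 2 fell (14.3% each), and 2 fell (14.3%) in the 3 comparisons, beside the same shares of all genes. Nedd4l, a ubiquitin ligase that removes several carriers from the cell surface, fell in each (-0.45, -0.42 and -0.39). Wnk1, a kinase that regulates chloride co-transporters, rose against control (0.40 and 0.36).

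Library totals ran from 28419156 to 38913292 counts. The T-cell label was checked with 10 markers, of which 8 were listed (Cd8a and Trac were not): their summed level was 3680 to 3769 CPM in controls, 3584 to 3786 after romidepsin, 3197 and 3781 after talazoparib and 3568 and 3167 with the combination. Cd3d was called lower in the 3 talazoparib comparisons (log2 -0.39, -0.41 and -0.42), Thy1 lower in both comparisons of the combination (-0.29 and -0.30), and Cd4 higher in all 3 (1.43, 2.09 and 1.58). Cd4 was low throughout and under 1 FPKM in both controls. It had 1.86 and 1.56 CPM in controls, 2.78 and 2.12 after romidepsin, 3.31 and 5.97 after talazoparib and 6.41 and 8.23 with the combination. Of other cell types, 3 of 6 myeloid markers were tested and 2 of them (Lyz2 and Itgam) rose in the talazoparib comparisons. The third, Cd68, did not pass, and Adgre1, Cd14 and Csf1r were not listed. The 3 tested, Cd68 included, summed to 15.0 to 24.4 CPM without talazoparib and 38.0 to 52.2 with it. Of the 4 B-cell markers only Cd79b was listed, and it rose (4.15 to 5.49 CPM without talazoparib, 9.01 to 12.3 with it). Of 5 stromal markers 4 were tested, with rises in Pdgfra and Pdgfrb and a fall in Acta2, and neither of 2 erythroid markers tested passed. The ribosomal precursor Rn45s took 0.52 and 0.394% of counts with talazoparib alone and 0.135 to 0.235% in the other 6 libraries. The part of these in the results on Slc genes was not tested.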

How the data were processed

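RNA from MBL2 cells was sequenced as stranded polyA-selected libraries (TruSeq), per the labels' protocols, and mapped and assembled with HISAT2 and StringTie on mm10, per the submitters' processing notes. Tool versions and the strand setting of the counting were not given in the sources used here. The deposited table gives whole-number counts and FPKM per gene and library; the authors' FPKM values served for levels and the membership rule, and the counts for all tests. Library totals of 28419156 to 38913292 counts limit the precision of low genes.

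Counts were fitted with edgeR 4.0.16 (R 4.3.3): filterByExpr (11934 of 12260 genes), TMM scaling, 1 term per group over all 8 libraries, 4 residual degrees of freedom, and glmQLFTest with Benjamini-Hochberg adjustment over all tested genes at 0.05. CPM values are counts scaled by TMM-adjusted totals. The SE of a log2 fold change is its size divided by the square root of F and is approximate. A prior count of 2 was used only for the log2 CPM values behind the correlation of same-numbered libraries, not for the fold changes. The common biological coefficient of variation was 12.9%. The pipeline was tested on simulated data.

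The 166 members, their role classes and the gene lists were chosen with earlier results of these data known. Genes called in any comparison may be named. Values in all libraries were due for the 6 largest rises and falls per comparison with at least 2 FPKM, the 2 smallest p per role and direction, a list of carriers fixed by name (of these, Slc12a2 was not among the members), and the 5 most abundant. Other members were added after their values were seen: Slc30a4, Slc16a6 and Slc38a10 for gaps between libraries, and low-level risers. Alternatives were RLE scaling, no filter, DESeq2 1.42.0, limma 3.58.1 on log2(FPKM + 1) and log2(FPKM + 0.1), only the compared groups, a replicate block, each library left out, and other FPKM rules. Coordinates and names come from RefSeq (GRCm38.p6), which matched 12237 genes and all 166 members. Results on 3 genes are not reported here.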

Additional observations from a re-analysis of the deposited data

How the results depend on the processing

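Of 81 calls of a Slc gene in a comparison, 6 kept their side of the threshold under every alternative, 75 lost it in at least 1, and 0 reversed. Those kept were Slc37a2 in the 3 talazoparib comparisons, Slc1a4 in both comparisons of the combination and Slc2a4 in the combination against control. The 81 include calls of genes under 1 FPKM in both controls, Slc2a4 among them, which the level rule partly set. The calls of such genes are description, and their stability is no support. DESeq2 and RLE scaling lost 1 each, no filter 4, limma 9 on log2(FPKM + 1) and 8 on log2(FPKM + 0.1), and only the compared groups 25. For talazoparib against control, the 22 calls became 2 with only the compared groups, and those among all genes went from 1321 to 296. For the combination against control the calls went from 33 to 49 (all genes: 2091 to 3068). Against romidepsin they went from 26 to 25 (all genes: 1397 to 1496). The replicate block lost 25 of the 81 calls and left 13 for talazoparib against control, 24 for the combination against control and 19 against romidepsin. Among all genes tested the block left 860, 1603 and 965 calls, where the main fit had 1321, 2091 and 1397. Replicate numbers are shared between groups by name alone: deviations of same-numbered libraries correlated from -0.333 to 0.287 over the pairs of groups, so the block is not taken as a pairing. Leaving out 1 library at a time gave 2 to 28 calls for talazoparib against control, 4 to 46 and 3 to 35 for the combination against control and against romidepsin, and 0 to 1 for romidepsin against control, where the 1 call without control replicate 2 was Slc30a4. Most calls were lost without control 1 (63), combination 2 (58), control 2 (55) and combination 1 (53), fewest without talazoparib 1 (5). Such fits leave a group with 1 library, assumed to vary like the others. The cause of these changes was not tested. Counting only the 157 genes not under 1 FPKM in both controls, added after seeing the data, left 16, 26 and 20 calls in the 3 talazoparib comparisons. What depth limits was not compared between levels.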
